A study of Homo sapiens with 48 samples.

Results

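Asparagine, serine and one-carbon synthesis is described here through 10 genes, ASNS, ASNSP1, PHGDH, PSAT1, PSPH, SHMT2, MTHFD2, MTHFD1L, CTH and CBS. They were chosen by name from the 14685 genes of the count tables, with earlier results of these data known. All 10 were in the tables at every time point and all passed edgeR's filter on low counts, which removed 0 genes. The cells were HEK293T, an established line of human embryonic kidney origin, of WT genotype per the labels. They expressed NCBP1, a protein of the complex that binds the cap of nuclear RNA, from a plasmid as a fusion with Halo. In T-REX, a photocaged precursor of the lipid electrophile 4-hydroxynonenal (HNE) is anchored to Halo, and light then releases HNE next to NCBP1. The 3 technical controls were light alone, probe alone and DMSO, and all arms carried the NCBP1-Halo plasmid. The labels do not spell these controls out. The study's Methods list probe with light for light alone, probe without light for probe alone, and DMSO with neither for DMSO, so that light alone as listed there has the same components as T-REX. RNA was taken 3, 6 and 12 h later from 4 replicates per arm and time (48 libraries, 12 groups). The expression is transient and of 1 line, and in bulk RNA fewer cells with a response and less RNA per cell cannot be told apart.

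As background, cells build serine from a glycolytic intermediate through PHGDH, PSAT1 and PSPH, and SHMT2 in mitochondria splits serine into glycine and a one-carbon unit carried on folate. MTHFD2 oxidizes that unit and MTHFD1L releases it as formate, which feeds nucleotide synthesis and methylation, while CBS and CTH pass the sulfur of homocysteine to cysteine through transsulfuration. ASNS makes asparagine from aspartate and glutamine, and ASNSP1 is a pseudogene related to it. Many of these genes are known targets of ATF4, the transcription factor of the amino acid and integrated stress response, which binds with C/EBP partners to elements of the type searched for below.

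The promoters of the 4 protein-coding members that passed the T-REX rule given below are printed here so that a reader can see which of them hold such an element. The sequences are from RefSeq on GRCh38.p14 and run 5′ to 3′ from 250 bases before to 50 bases after a start site, in lower case with any match in capitals. Both strands were searched for TGATGNAAT and TGATGAAAC, which differ in their last base and cannot match at the same place. Of 35116 RefSeq promoters of this length (300 bases), 0.991% held the first and 0.225% held the second. The ASNS promoter on the minus strand of chromosome 7 (chr7:97872359-97872658) holds TGATGAAAC at position -68 from the start.
ASNS: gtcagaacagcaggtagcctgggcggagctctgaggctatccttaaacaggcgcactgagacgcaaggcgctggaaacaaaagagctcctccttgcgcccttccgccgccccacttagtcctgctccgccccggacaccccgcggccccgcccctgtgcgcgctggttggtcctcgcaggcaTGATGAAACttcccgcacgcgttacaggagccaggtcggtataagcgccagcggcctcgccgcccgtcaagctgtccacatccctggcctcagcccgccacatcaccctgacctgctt
The MTHFD1L promoter on the plus strand of chromosome 6 (chr6:150866236-150866535) holds TGATGCAAT, a match to TGATGNAAT, at position -129, and 2 further MTHFD1L entries overlap this window and hold the same match.
MTHFD1L: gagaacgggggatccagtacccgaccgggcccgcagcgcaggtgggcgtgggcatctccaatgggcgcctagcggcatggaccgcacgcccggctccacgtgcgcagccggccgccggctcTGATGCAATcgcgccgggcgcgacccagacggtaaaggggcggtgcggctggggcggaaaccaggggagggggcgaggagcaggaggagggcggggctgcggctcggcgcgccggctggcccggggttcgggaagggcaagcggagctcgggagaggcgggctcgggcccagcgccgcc
The PSAT1 window on the plus strand of chromosome 9 (chr9:78296875-78297174) and the MTHFD2 window on the plus strand of chromosome 2 (chr2:74198365-74198664) hold neither motif.
PSAT1: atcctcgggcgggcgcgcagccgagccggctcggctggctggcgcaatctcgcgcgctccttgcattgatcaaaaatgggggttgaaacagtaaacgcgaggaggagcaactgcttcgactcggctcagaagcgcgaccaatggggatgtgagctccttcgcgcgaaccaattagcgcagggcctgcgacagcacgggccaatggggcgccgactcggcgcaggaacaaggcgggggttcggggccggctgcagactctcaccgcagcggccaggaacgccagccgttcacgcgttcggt
MTHFD2: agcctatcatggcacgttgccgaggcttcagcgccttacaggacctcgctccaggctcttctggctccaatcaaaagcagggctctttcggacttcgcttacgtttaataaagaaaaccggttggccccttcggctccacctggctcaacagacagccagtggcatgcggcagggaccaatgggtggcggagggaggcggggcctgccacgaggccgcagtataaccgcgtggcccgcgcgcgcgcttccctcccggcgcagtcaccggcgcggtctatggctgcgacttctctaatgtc
Entries for 7 members (13 windows) were searched, and 2 members, ASNS and MTHFD1L, had a match. PHGDH, CTH and CBS had none, and PSPH, SHMT2 and ASNSP1 were not searched. A match is a run of letters and not a measured binding site, and its absence says only that these letters are not in the window. The motifs were chosen with earlier results of these data known. The matches and the shares of promoters beside them are therefore a description and not a test.

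Several members share sequence with other genes, which bears on how their reads could be counted, since how the authors' counting dealt with reads matching several genes is not given in the sources used here. In GENCODE 29 transcripts, 97.0% of the longest ASNSP1 transcript (1939 bases) aligned to ASNS, with 90.5% identity over the longest alignment of 1047 bases. Only 43 windows of 50 bases were the same in both genes and 0 windows of 150 bases were, so that short exact stretches are shared and longer ones differ. ASNS also shared 34.8% of its 150-base windows with AC079781.5, a gene that is not among the rows used here. CBS shared 46.9% of its windows with its near-identical copy CBSL, which has a row of its own, and MTHFD2 shared 20.8% with SLC4A5, which has one too. SHMT2 shared 2.24%, and PHGDH, PSAT1, PSPH, MTHFD1L and CTH shared 0%. Values of ASNS, ASNSP1, CBS and MTHFD2 are therefore uncertain in how reads were split, and the part of this in the results was not tested. Of 20 other named copies looked for, 0 were in the tables.

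The library totals lay between 23952455 and 37099535 counts (median 29405598.5), and the members' counts lay between 110 (CBS) and 5557 (PSAT1). Levels are given in CPM, counts scaled to a library size of 1e6 after TMM scaling over all 48 libraries. Per kilobase of exon (GENCODE 29) and in the DMSO arm at 3 h, PSAT1, the aminotransferase of serine synthesis, was highest at 68.7 ± 6.93 CPM per kb (mean ± SD, n = 4). MTHFD2, CTH and SHMT2 followed at 23.1 ± 2.26, 22.5 ± 1.93 and 21.9 ± 1.08 CPM per kb, and these neighbours overlapped between libraries. MTHFD1L, PHGDH, PSPH, ASNSP1 and ASNS came next at 13.8, 10.9, 7.15, 2.73 and 1.62 CPM per kb, each without overlap with its neighbour. CBS stood lowest at 1.37 CPM per kb and overlapped with ASNS. The length used joins all annotated exons of a gene, 9217 bases for PHGDH and 6786 for CBS. The longest transcripts of these genes have 3180 and 2656 bases, so the order holds for this length only. ASNSP1 carried as many counts as ASNS itself in most libraries, with a count ratio of ASNSP1 to ASNS of 1.17 at the median of 48 libraries (range 0.612 to 1.84).

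Asparagine, serine and one-carbon genes were higher under T-REX wherever they passed the test. Of 90 log2 fold changes (10 genes, 9 comparisons of T-REX with a control), 23 were called higher and 0 lower at an adjusted p of at most 0.05 (quasi-likelihood F-test of edgeR, Benjamini-Hochberg adjustment across the whole table). By sign alone, 86 of the values were positive and 4 negative. These comparisons share the T-REX libraries of a time point and are not independent. Signs were uneven between some controls as well. Light alone against probe alone gave 0 positive and 10 negative values at 6 h and again at 12 h. Probe alone against DMSO gave 9 positive and 1 negative at 6 h. The signs of all genes were not counted, so the sign count is a description only. The members were chosen with earlier results of these data known. The shares of all genes printed beside their counts are therefore a scale and not a test. At 3 h, 2 of 10 members were called higher in each comparison (light alone, probe alone and DMSO in this order), where 0.0817%, 0.238% and 1.45% of all genes were called higher. At 6 h, the counts were 1, 0 and 2 members, beside 0.123%, 0.0204% and 0.177% of all genes. At 12 h they were 4, 4 and 6 members, beside 0.497%, 0.197% and 4.09%. Of the 23 calls, 8 were lost when each fit held only the 2 arms compared (adjusted p from 0.0566 to 0.24), namely ASNS over light alone and probe alone, MTHFD1L over light alone and DMSO and CTH over probe alone at 3 h, and PHGDH, PSAT1 and MTHFD2 over DMSO at 12 h. The members' median log2 fold change at 12 h was 0.33 over light alone, 0.27 over probe alone and 0.34 over DMSO, while the median over all genes was within 0.003 of 0.

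Under the study's rule for significantly differentially expressed (SDE) genes, called with 1 sign over 2 or all 3 of the controls, ASNS and MTHFD1L were SDE at 3 h (2 of 10 members, beside 0.177% of all genes SDE higher). At 6 h 0 of 10 were (0.0545% of all genes were SDE higher), as by limma-trend, while DESeq2 gave 3. For T-REX and probe alone at 6 h, where edgeR, DESeq2 and limma-trend called 0 members, 5 had an unadjusted p of at most 0.05. At 12 h ASNSP1, PSAT1, MTHFD2 and MTHFD1L were (4 of 10, beside 0.49% of all genes). With the authors' RUV factors as covariates the SDE members were 5, 8 and 8 at 3, 6 and 12 h, beside 14.4%, 2.34% and 8.95% of all genes, either sign counted. Over light alone, probe alone and DMSO, the members called with these factors were 6, 5 and 5 of 10 at 3 h beside 11.8%, 17.4% and 20.8% of all genes, 8, 5 and 8 at 6 h beside 8.19%, 1.75% and 7.14%, and 8, 6 and 9 at 12 h beside 8.62%, 6.14% and 26.7%. Without them PSPH, SHMT2 and CBS were not called by edgeR in any of the 9 comparisons.

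**Figure D1:**
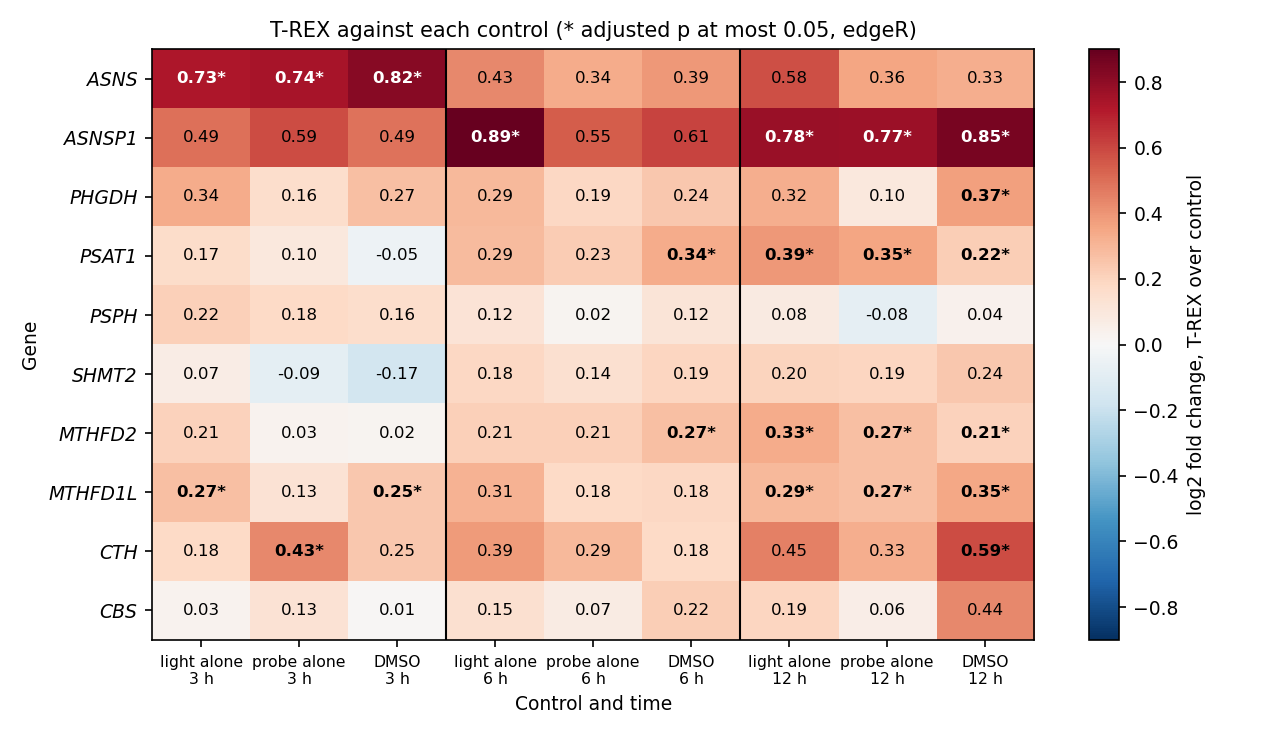
Log2 fold changes of T-REX over each control for the 10 genes (rows) at 3, 6 and 12 h (columns), from edgeR's quasi-likelihood fit, where colour and printed value give the log2 fold change and a star marks an adjusted p of at most 0.05. The 23 starred values are all positive, ASNS is starred at 3 h and ASNSP1 at 12 h over all 3 controls, and 86 of 90 values are above 0.

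A comparison of single libraries showed how far the arms were apart. At 3 h, every T-REX library lay above every light alone library in 5 of 10 members (2.36% of all genes did so), above every probe alone library in 2 (2.85%) and above every DMSO library in 2 (4.26%). At 6 h the counts were 5 (2.95%), 5 (3.05%) and 4 (4.4%). At 12 h they were 8 (5.47%), 6 (4.32%) and 5 (5.89%). MTHFD1L was apart in 8 of the 9 comparisons, and ASNS, ASNSP1 and MTHFD2 in 6 each. Controls were also apart from one another in some members. At 3 h light alone lay wholly above probe alone in 1 of 10 members and wholly below it in 3, and at 12 h in 0 and 2. Light alone lay wholly below DMSO in 1 member at 3 h. Probe alone lay wholly above DMSO in 1 member at 3 h and in 1 at 12 h. At 6 h the controls overlapped in every member. The shares of all genes for these control comparisons were not computed.

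Between controls, 0 of 10 members were called in any of the 9 comparisons by edgeR (15 of the 90 values had an unadjusted p of at most 0.05). DESeq2 called 1 of these values and limma-trend 0. With the RUV factors as covariates, however, members were also called between controls. At 3 h they were 3, 0 and 4 of 10 (light alone and DMSO, probe alone and DMSO, light alone and probe alone), beside 5.84%, 1.25% and 14.8% of all genes. At 6 h they were 1, 0 and 0 (12.2%, 2.45% and 3.06%), and at 12 h 1, 3 and 1 (6.96%, 22.5% and 8.38%). Without these factors, light alone and DMSO differed in 0.00681%, 0.00681% and 0.0136% at 3, 6 and 12 h, probe alone and DMSO in 0.00681%, 0.0272% and 5.11%, and light alone and probe alone in 0.232%, 0.0613% and 0.415% of all genes. NCBP1 itself, whose counts do not separate plasmid from endogenous RNA, ranged from 30800 to 92200 CPM over the 48 libraries. It was called higher under T-REX than DMSO at 3 h and 12 h (log2 fold changes 0.50 and 0.73) and than light alone at 6 h (0.80). NCBP1 was also called between controls, 0.77 higher in probe alone than in DMSO at 12 h and 0.99 lower in light alone than in probe alone at 6 h on the log2 scale (differences of 0.77 and -0.99, with adjusted p = 0.00541 for the former and 0.0144 for the latter), and its part in the members' values was not tested.

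ASNS, asparagine synthetase, rose at 3 h over all 3 controls. The 4 T-REX libraries of 3 h gave 12.9, 11.5, 12.5 and 14.01 CPM for ASNS. ASNS was at 8.54, 7.60, 7.88 and 6.66 CPM in the light alone arm and at 6.73, 9.12, 7.69 and 7.26 CPM in the probe alone arm. The DMSO libraries gave 8.82, 6.94, 6.87 and 6.28 CPM. The lowest T-REX library stood above the highest of the 12 control libraries. The log2 fold changes (± SE) were 0.82 ± 0.13 over DMSO, 0.74 ± 0.13 over probe alone and 0.73 ± 0.13 over light alone (adjusted p = 0.00132, 0.00817 and 0.0105), or 1.76-, 1.67- and 1.66-fold. The call over DMSO held in all 16 fits that left out 1 library. DESeq2 gave no adjusted p for ASNS over light alone at 3 h and called the other pair. Leaving out light alone replicate 2 or 3 ended the call over light alone (adjusted p of at most 0.0614), and leaving out probe alone replicate 1 ended the call over probe alone (adjusted p = 0.0544).

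At 6 and 12 h ASNS did not pass the test. At 6 h ASNS stood at 8.46 ± 0.842 CPM under T-REX (mean ± SD, n = 4), while the light alone, probe alone and DMSO arms stood at 6.25 ± 0.998, 6.70 ± 1.27 and 6.42 ± 0.259 CPM (log2 fold changes 0.43, 0.34 and 0.39, adjusted p = 0.243, 0.68 and 0.234). At 12 h the 4 T-REX libraries gave 10.3, 10.9, 8.66 and 8.34 CPM. The DMSO libraries of 12 h gave 5.14, 7.18, 10.5 and 7.52 CPM, so that DMSO replicate 3 lay among the T-REX libraries. The log2 fold changes at 12 h were 0.58 ± 0.16, 0.36 ± 0.16 and 0.33 ± 0.16 (adjusted p = 0.0665, 0.391 and 0.178). Without DMSO replicate 3, ASNS passed at 12 h with a log2 fold change of 0.58 over light alone (adjusted p = 0.00686) and of 0.53 over DMSO (adjusted p = 0.0155). DMSO replicate 1 was about as far from the group mean on the other side (log2 deviations of -0.51 for replicate 1 and 0.52 for replicate 3). Replicate 3 is thus not the only library far out, and no rise at 12 h is read from this fit.

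**Figure D2:**
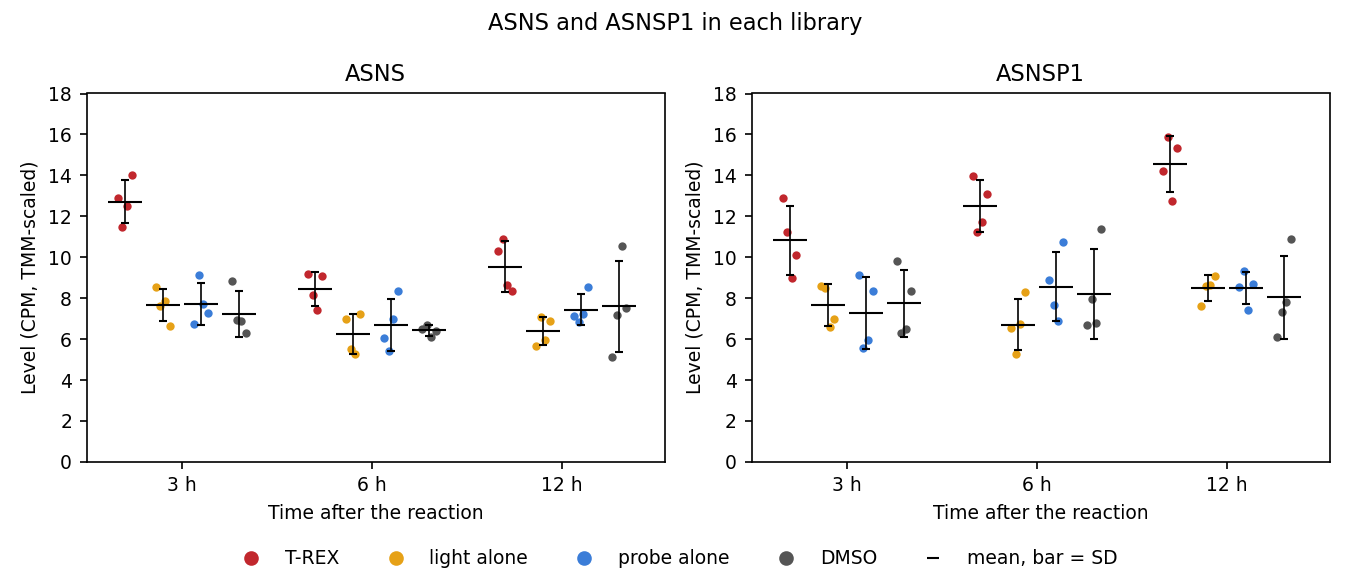
Levels of ASNS (left) and ASNSP1 (right) in CPM after TMM scaling (vertical axis, from 0) in each of the 48 libraries by time and arm, with points for libraries, a horizontal line for the mean and a bar for the SD of 4 libraries. The T-REX libraries of ASNS at 3 h lie between 11.5 and 14.01 CPM and those of ASNSP1 at 12 h between 12.8 and 15.9 CPM, above all control libraries of the same time.

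ASNSP1, the pseudogene, was called at 6 and 12 h. At 12 h its T-REX libraries gave 14.2, 15.9, 12.8 and 15.3 CPM. The 12 control libraries of that time lay between 6.08 and 10.9 CPM, the highest being DMSO replicate 4, and did not overlap with T-REX. ASNSP1 rose by log2 fold changes of 0.85 ± 0.13 over DMSO, 0.78 ± 0.13 over light alone and 0.77 ± 0.13 over probe alone (adjusted p = 0.000273, 0.00143 and 0.00329), in all 16 fits that left out 1 library. At 6 h it was called over light alone only, at 13.97, 11.2, 11.7 and 13.1 CPM under T-REX and 6.55, 5.29, 6.73 and 8.29 CPM with light alone (log2 fold change 0.89 ± 0.17, adjusted p = 0.0184). Leaving out T-REX replicate 1 or 4 or light alone replicate 1 or 2 ended that call (adjusted p of at most 0.0988). Over probe alone and DMSO at 6 h the log2 fold changes were 0.55 and 0.61 (adjusted p = 0.376 and 0.101), where DMSO replicate 4 at 11.4 CPM lay among the T-REX libraries. At 3 h its log2 fold changes were 0.49, 0.59 and 0.49, below those of ASNS, and did not pass (adjusted p = 0.178, 0.0811 and 0.0932). With the replicate number as a block ASNSP1 also passed over probe alone and DMSO at 3 h (log2 fold changes 0.60 and 0.49, adjusted p = 0.0353 and 0.0288) and over DMSO at 6 h (0.63, adjusted p = 0.0383).

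Whether ASNSP1 follows ASNS was read from the ratio of their counts in each library. Under T-REX the ratio at 3, 6 and 12 h was 0.856 ± 0.156, 1.48 ± 0.0884 and 1.54 ± 0.205 (mean ± SD, n = 4). With DMSO it was 1.07 ± 0.190, 1.28 ± 0.337 and 1.099 ± 0.295. The differences of the mean log2 ratio between T-REX and the controls (light alone, probe alone, DMSO) were -0.24, -0.13 and -0.33 at 3 h, 0.47, 0.21 and 0.25 at 6 h, and 0.20, 0.42 and 0.52 at 12 h. In exact two-sided permutation tests of 4 against 4 libraries, whose smallest possible p is 0.0286, the lowest p was 0.0286 (light alone at 6 h and probe alone at 12 h), and after adjustment over the 9 tests the lowest was 0.129. In those 2 comparisons the groups did not overlap (at least 1.38 under T-REX against at most 1.28 with light alone at 6 h, and at least 1.38 against at most 1.36 with probe alone at 12 h). A p of 0.0286 in only 2 of 9 tests cannot pass the adjustment, so these tests leave undecided whether the ratio differs. Within groups, ASNS and ASNSP1 correlated at r = 0.29 over 48 libraries (rho = 0.24, permutation p = 0.13 and 0.16, adjusted p = 0.3 and 0.43 over 45 pairs of members, r = 0.24 without the 2 libraries farthest out in ASNS), with r of -0.05, 0.48 and 0.43 at 3, 6 and 12 h.

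**Figure D3:**
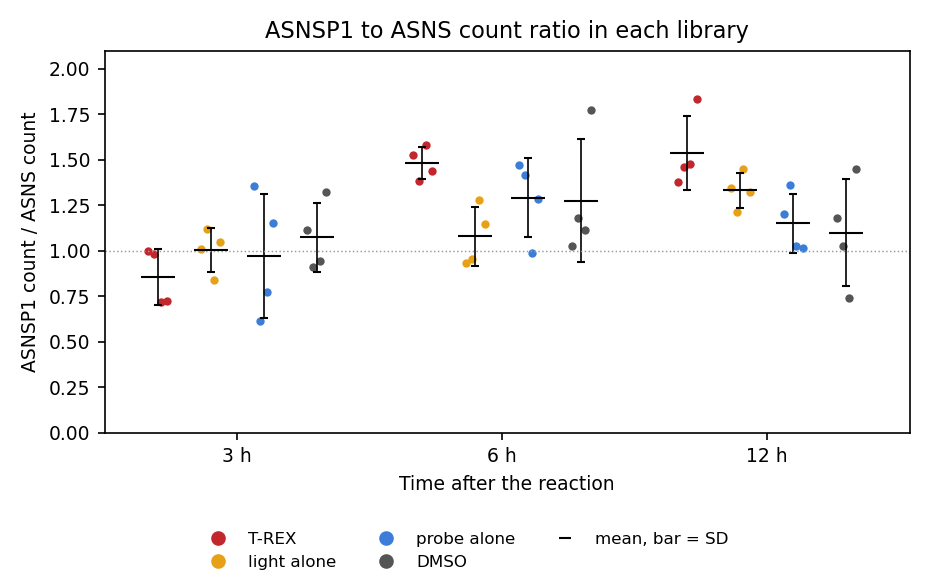
Ratio of the ASNSP1 count to the ASNS count (vertical axis, from 0, with a dotted line at 1) in each library by time and arm, with points for libraries and the mean with its SD for 4 libraries. The T-REX libraries run from 0.72 to 1.0 at 3 h, from 1.38 to 1.58 at 6 h and from 1.38 to 1.84 at 12 h.

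Of the 3 enzymes that make serine, PSAT1 was called higher than controls at 6 and 12 h, PHGDH in a single comparison and PSPH in none. Throughout, a rise is over the control of the same time and not over an earlier time. The mean PSAT1 level under T-REX was 145, 151 and 138 CPM at 3, 6 and 12 h. In DMSO it was 150, 120 and 118 CPM. PSAT1, phosphoserine aminotransferase, gave 147, 147, 127 and 133 CPM under T-REX at 12 h. Light alone gave 108, 107, 98.7 and 110 CPM, probe alone 106, 99.04, 107 and 120 CPM, and DMSO 116.6, 110, 137 and 110 CPM. T-REX lay above every light alone and probe alone library, and DMSO replicate 3 at 137 CPM lay above 2 of the T-REX libraries. The log2 fold changes of PSAT1 were 0.39 ± 0.07, 0.35 ± 0.07 and 0.22 ± 0.07 (adjusted p = 0.00292, 0.0138 and 0.0414). The call over DMSO was lost in 9 of 16 fits that left out 1 library (T-REX replicate 1, 2 or 4, light alone replicate 1, 2 or 4, or DMSO replicate 1, 2 or 4), and with the replicate number as a block (adjusted p = 0.0667). The call over probe alone was lost in 5 (T-REX replicate 1 or 2, or probe alone replicate 1, 2 or 3).

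At 6 h PSAT1 was called over DMSO, at 148, 152, 155 and 149 CPM under T-REX and 127, 113, 120 and 119 CPM with DMSO (log2 fold change 0.34 ± 0.06, adjusted p = 0.0149). This call was lost without T-REX replicate 2 or 3. Light alone replicate 3 of 6 h, at 145 CPM for PSAT1 against 114 to 120 CPM in the other light alone libraries, stood apart. Without it PSAT1 rose at 6 h by 0.38 and 0.23 over light alone and probe alone on the log2 scale (adjusted p = 4.84e-05 and 0.00884). MTHFD2 then passed as well, with 0.26 and 0.21 (adjusted p = 0.0185 and 0.0446), so that 2 of 10 members were SDE at 6 h. At 3 h the PSAT1 values were 145 ± 9.01 CPM under T-REX and 150 ± 15.2 CPM with DMSO, a log2 fold change of -0.05.

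PHGDH, the first and committed enzyme of serine synthesis, gave 116.9, 108, 107 and 106 CPM under T-REX at 12 h and 95.7, 89.9, 64.3 and 89.4 CPM with DMSO. Every T-REX library lay above every DMSO library, and DMSO replicate 3 was far below the others. PHGDH rose over DMSO by a log2 fold change of 0.37 ± 0.09 (adjusted p = 0.00963), in all 16 fits that left out 1 library. Over light alone and probe alone at 12 h its log2 fold changes were 0.32 and 0.10 (adjusted p = 0.0645 and 0.751). Every probe alone library of 12 h also lay above every DMSO library. That log2 fold change of PHGDH was 0.27 ± 0.09 and did not pass (adjusted p = 0.0721). Without DMSO replicate 3 the value over light alone passed (log2 fold change 0.33, adjusted p = 0.000249). At 3 h PHGDH gave 104, 111, 135 and 131 CPM under T-REX and 98.2, 93.7, 95.9 and 93.3 CPM with light alone, without overlap (log2 fold change 0.34 ± 0.08, adjusted p = 0.0739).

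PSPH, the phosphatase of the last step to serine, did not pass in any comparison. Its log2 fold changes ran from -0.08 (probe alone, 12 h) to 0.22 (light alone, 3 h), and its levels in all 48 libraries lay between 16.3 and 23.98 CPM. T-REX overlapped with the control in all 9 comparisons.

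Of the 3 mitochondrial one-carbon enzymes, MTHFD1L and MTHFD2 were called and SHMT2 was not. A difference between these genes was not tested. Over DMSO at 12 h the log2 fold change of SHMT2 (0.24) was above that of MTHFD2 (0.21). MTHFD1L, the mitochondrial formate-tetrahydrofolate ligase, rose in 5 of 9 comparisons, the most of any member. At 3 h it gave 86.0, 82.4, 81.7 and 78.4 CPM under T-REX, 71.0, 68.9, 62.8 and 69.8 CPM with light alone and 72.8, 68.7, 66.8 and 69.6 CPM with DMSO. T-REX lay above all libraries of both arms. MTHFD1L rose by 0.27 ± 0.05 and 0.25 ± 0.05 over these 2 arms on the log2 scale (adjusted p = 0.0171 and 0.00743). Its probe alone libraries ran up to 79.1 CPM, and the log2 fold change over them was 0.13 ± 0.05 (adjusted p = 0.159). The light alone call of 3 h was lost without T-REX replicate 2, light alone replicate 2 or 3, or DMSO replicate 4 (adjusted p of at most 0.178).

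At 12 h MTHFD1L gave 77.5, 74.4, 73.7 and 72.0 CPM under T-REX, and the 12 control libraries lay between 51.9 and 64.3 CPM. No control library reached the T-REX range. It rose by log2 fold changes of 0.29 ± 0.06, 0.27 ± 0.06 and 0.35 ± 0.06 over the controls in the order light alone, probe alone, DMSO (adjusted p = 0.00587, 0.0197 and 0.000394). The calls over light alone and DMSO held in all 16 fits that left out 1 library, and the probe alone call was lost when T-REX replicate 1 or 2 or probe alone replicate 1, 2 or 3 was left out. At 6 h MTHFD1L stood at 73.5 ± 3.97 CPM under T-REX and 59.2 ± 8.40, 64.8 ± 4.01 and 64.7 ± 5.55 CPM in the controls, again without overlap, and did not pass (log2 fold changes 0.31, 0.18 and 0.18, adjusted p = 0.119, 0.737 and 0.355).

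MTHFD2, the mitochondrial methylenetetrahydrofolate dehydrogenase, gave 111, 112, 98.4 and 96.7 CPM under T-REX at 12 h. Light alone gave 80.6, 84.4, 82.5 and 85.2 CPM, probe alone 87.8, 82.2, 93.4 and 82.2 CPM, and DMSO 83.8, 87.6, 101 and 89.5 CPM. Only DMSO replicate 3 reached the T-REX range. On the log2 scale MTHFD2 was higher than these controls by 0.33 ± 0.06, 0.27 ± 0.06 and 0.21 ± 0.06 (adjusted p = 0.00381, 0.0364 and 0.0325). The light alone call held in all 16 fits that left out 1 library. The probe alone call was lost in 9 of them (T-REX replicate 1 or 2, any light alone replicate, or probe alone replicate 1, 2 or 4) and with the replicate block (adjusted p = 0.0562), and the DMSO call in 4 (T-REX or DMSO replicate 1 or 2). SLC4A5, which shares windows with MTHFD2, was at 3.03 to 8.39 CPM in all libraries and was not called under T-REX at any time.

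At 6 h MTHFD2 was called over DMSO, at 106, 104, 101 and 103 CPM under T-REX and 85.9, 87.6, 87.2 and 81.6 CPM with DMSO (log2 fold change 0.27 ± 0.06, adjusted p = 0.0269), and this call was lost in 5 of 16 fits that left out 1 library (T-REX replicate 1, 2 or 3, or DMSO replicate 1 or 3). The 12 control libraries of 6 h, from 81.6 to 97.5 CPM, all lay below T-REX. At 3 h MTHFD2 stood at 114 ± 0.713 CPM under T-REX, while the probe alone and DMSO arms were at 113 ± 5.34 and 112 ± 10.99 CPM and light alone at 98.3 ± 3.05 CPM (log2 fold change 0.21 ± 0.06, adjusted p = 0.0988).

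SHMT2, the mitochondrial serine hydroxymethyltransferase, did not pass in any comparison. Its log2 fold changes were 0.07, -0.09 and -0.17 at 3 h, 0.18, 0.14 and 0.19 at 6 h and 0.20, 0.19 and 0.24 at 12 h. At 12 h all 4 T-REX libraries, at 112, 104, 106 and 107 CPM, were above the 12 control libraries, which reached 103 CPM, and the lowest adjusted p was 0.0545 (over DMSO).

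**Figure D4:**
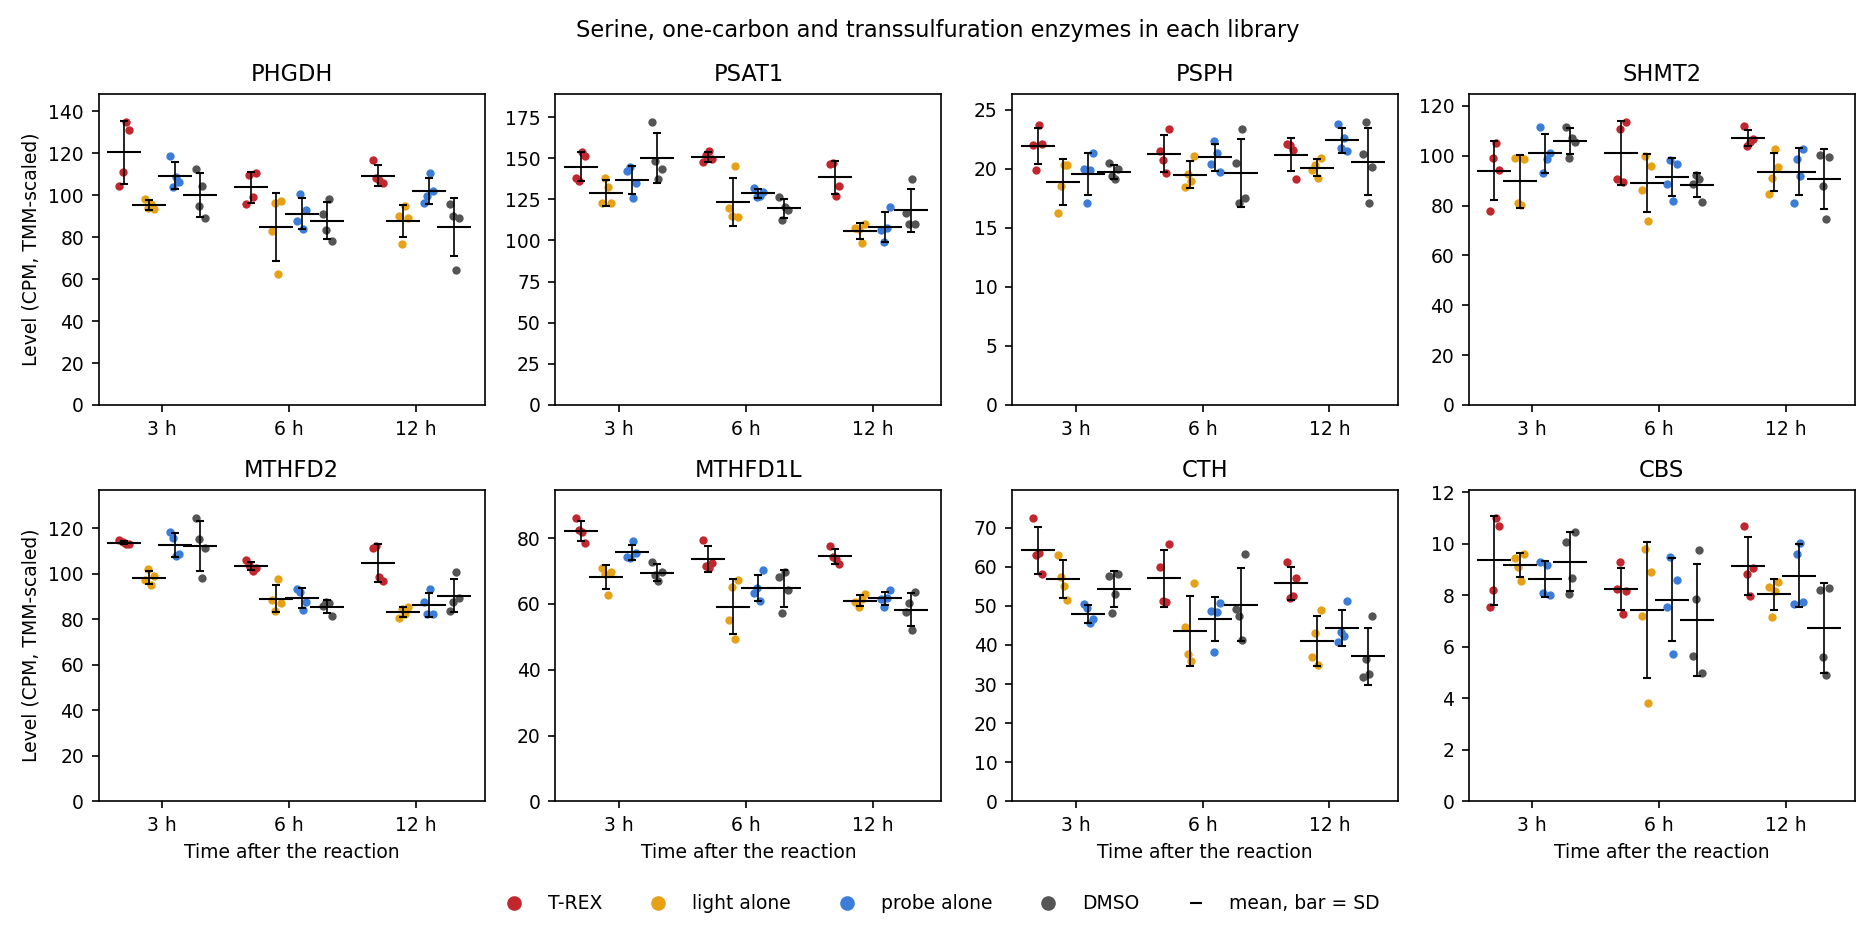
Levels of the 8 members other than ASNS and ASNSP1 in CPM after TMM scaling (vertical axes, each from 0) in each of the 48 libraries by time and arm, with points for libraries and the mean with its SD for 4 libraries. MTHFD1L and SHMT2 under T-REX at 12 h lie above all control libraries of that time, while PSPH and CBS overlap with the controls at every time.

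Of the transsulfuration enzymes, CTH was called in 2 comparisons and CBS in none. CTH, cystathionine gamma-lyase, gave 61.1, 52.1, 52.6 and 57.2 CPM under T-REX at 12 h and 31.7, 36.5, 32.6 and 47.4 CPM with DMSO. The groups did not overlap, and CTH rose by a log2 fold change of 0.59 ± 0.11 (adjusted p = 0.00282). Over light alone and probe alone at 12 h, also without overlap, the log2 fold changes were 0.45 ± 0.11 and 0.33 ± 0.11 (adjusted p = 0.0557 and 0.254). At 3 h CTH was called over probe alone, where T-REX gave 72.4, 62.9, 63.4 and 58.1 CPM and the control 50.4, 49.4, 45.6 and 46.7 CPM (log2 fold change 0.43 ± 0.08, adjusted p = 0.00817). The values over light alone and DMSO at 3 h were 0.18 and 0.25 (adjusted p = 0.269 and 0.0541). Every light alone library of 3 h also lay above every probe alone library for CTH (log2 fold change 0.26 ± 0.08, adjusted p = 0.139). Probe alone against DMSO gave -0.19 ± 0.08 (adjusted p = 0.974). Both CTH calls held in all 16 fits that left out 1 library.

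CBS, cystathionine beta-synthase, had log2 fold changes from 0.01 (DMSO, 3 h) to 0.44 (DMSO, 12 h, adjusted p = 0.0606), and its T-REX libraries overlapped with the controls in all 9 comparisons. Its levels lay between 3.83 CPM (light alone replicate 3 at 6 h) and 11 CPM. Its copy CBSL was at 1.67 to 5.68 CPM and was not called under T-REX either.

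The T-REX effect (T-REX minus the mean of the 3 controls) was compared between times in 1 edgeR fit of all 48 libraries. For ASNS it was smaller by 0.37 ± 0.17 at 6 h and by 0.33 ± 0.17 at 12 h than at 3 h on the log2 scale (differences of -0.37 and -0.33, adjusted p = 0.619 and 0.456). For PSAT1 it was 0.26 ± 0.08 higher at 12 h than at 3 h and for MTHFD2 0.19 ± 0.07 higher (adjusted p = 0.163 and 0.225). The order of calls, with ASNS at 3 h and PSAT1 and MTHFD2 at 12 h, was thus not shown to be a difference between times. By edgeR 0 of 10 members passed for 6 h against 3 h, 12 h against 3 h or 12 h against 6 h, and 4, 3 and 0 had an unadjusted p of at most 0.05. Over all genes 0.0%, 0.116% and 0.0% passed, and 1097, 1621 and 435 had such an unadjusted p.

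Without probe or light, the levels changed with time in part of the members, although time cannot be told apart from harvest, library batch or table. In DMSO, PSAT1 and MTHFD2 fell by 0.33 and 0.39 on the log2 scale from 3 to 6 h (adjusted p = 0.000606 and 3.03e-06), 2 of 10 members beside 6.97% of all genes called lower. From 3 to 12 h, 4 of 10 fell (18.4% of all genes did), with log2 changes of -0.35 for PSAT1, -0.31 for MTHFD2, -0.25 for MTHFD1L and -0.55 for CTH (adjusted p = 8.57e-05, 2.25e-05, 0.00188 and 0.000749). ASNS, ASNSP1 and PSPH had differences between -0.17 and 0.08 in DMSO and did not pass. Under T-REX, PSAT1 stood at 145, 151 and 138 CPM and CTH at 64.2, 57.0 and 55.7 CPM at 3, 6 and 12 h, against 150, 120 and 118 CPM and 54.3, 50.3 and 37.1 CPM in DMSO.

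Within groups, some members went up and down together from library to library. How often other pairs of genes do so was not computed. These relations are therefore not shown to be particular to the members. Deviations of log2 CPM from the group mean were correlated over the 48 libraries for all 45 pairs, with p-values from 100000 permutations of libraries within groups (the smallest they can give is 1e-05), and 7 pairs passed by r after adjustment over the 45. PHGDH, SHMT2 and CBS formed one set. PHGDH and CBS had r = 0.78 (rho = 0.70, permutation p = 1e-05 and 6e-05, adjusted p = 0.00022 for r), PHGDH and SHMT2 r = 0.73 (rho = 0.69, permutation p = 2e-05 and 1e-05) and SHMT2 and CBS r = 0.69 (rho = 0.67, permutation p = 1e-05 for both), with the same adjusted p of 0.00022 for r. Without the 2 libraries farthest out in the first gene of each pair, r was 0.69, 0.65 and 0.65, and within each time it was between 0.59 and 0.88. PSAT1 and MTHFD2 formed another (r = 0.63, rho = 0.54, permutation p = 0.00084 and 0.0012, adjusted p = 0.0076 for r), with r = 0.52 without the 2 farthest libraries and between 0.58 and 0.70 within each time.

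ASNSP1 and CTH also went together (r = 0.65, rho = 0.60, permutation p = 2e-05 and 8e-05, adjusted p = 0.00022 for r), with r = 0.55 without the 2 farthest libraries and between 0.62 and 0.73 within each time. ASNS and CTH passed by rho and not by r (rho = 0.52 and r = 0.44, permutation p = 0.0015 and 0.013, adjusted p = 0.011 and 0.076), with r = 0.54 without the 2 farthest libraries. The pair of PHGDH and MTHFD1L (r = 0.56, rho = 0.39, permutation p = 0.0073 and 0.03, adjusted p = 0.047 and 0.17) did not hold at 3 h (r = -0.18) and had r = 0.35 without the 2 farthest libraries. PHGDH and PSPH gave r = 0.47 and rho = 0.42 (permutation p = 0.0041 and 0.0073, adjusted p = 0.031 and 0.047), with r = 0.40 without the 2 farthest libraries. The first 2 sets went apart in the 2 libraries that stood out above. In light alone replicate 3 at 6 h, PHGDH was 0.42, SHMT2 0.26 and CBS 0.86 below the group mean on the log2 scale (deviations of -0.42, -0.26 and -0.86), while PSAT1 was 0.24 and MTHFD2 0.13 above it. In DMSO replicate 3 at 12 h the deviations were -0.38, -0.27 and -0.42 for PHGDH, SHMT2 and CBS, and 0.22, 0.16 and 0.52 for PSAT1, MTHFD2 and ASNS.

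These libraries also have extreme values of the first of 2 factors of unwanted variation (RUV) that the authors deposited, whose sign is arbitrary at each time. PHGDH correlated with that factor within groups at r of -0.76, 0.97 and -0.83 at 3, 6 and 12 h (16 libraries each), CBS at -0.55, 0.87 and -0.70, and PSAT1 at -0.39, -0.68 and 0.67, as a description, since the factor comes from the same libraries. The longest transcripts of SHMT2, CBS and PHGDH have 57.0%, 57.8% and 52.3% G and C, those of PSAT1 and MTHFD2 42.3% and 41.4%, and those of ASNSP1 and CTH 40.6% and 43.3%. ASNSP1 correlated with the factor at 0.30, -0.15 and 0.06, and CTH at 0.36, 0.11 and -0.20. The part of RNA quality or base composition in these relations was not tested.

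**Figure D5:**
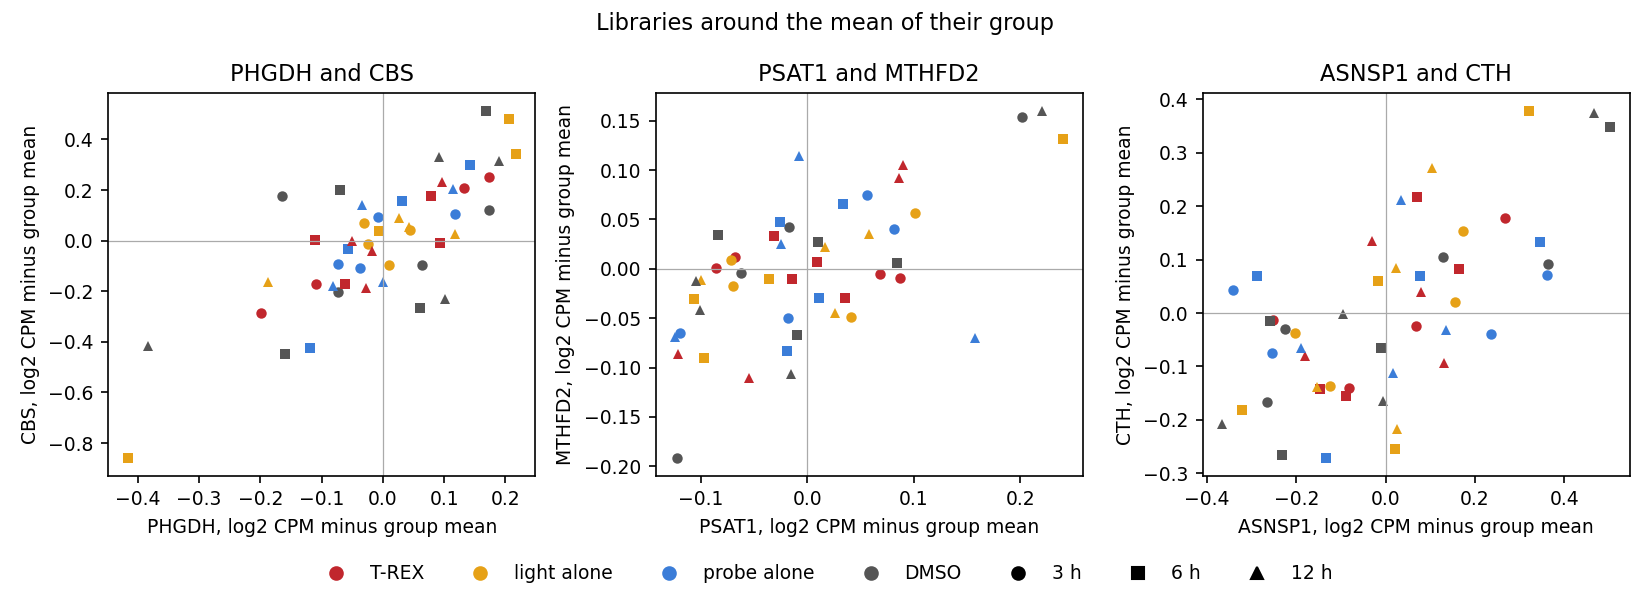
Deviation of each of the 48 libraries from the mean of its group in log2 CPM for PHGDH and CBS (left), PSAT1 and MTHFD2 (middle) and ASNSP1 and CTH (right), with colour for the arm and shape for the time. The points rise together with r = 0.78, 0.63 and 0.65, and light alone replicate 3 of 6 h is the lowest point of the left panel at -0.42 for PHGDH and -0.86 for CBS.

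Other genes of the same metabolism were read from 6 lists of 59 genes, 49 of them in the tables. In the comparisons with light alone, probe alone and DMSO, in this order, 0, 0 and 0 of the 49 were called higher and 0, 2 and 3 lower at 3 h, where 0.116%, 0.81% and 4.54% of all genes were called lower. At 6 h 0, 0 and 1 were called higher and 0 lower in each (0.0953%, 0.0885% and 0.238% of all genes were lower). At 12 h 1, 1 and 3 were called higher and 1, 0 and 3 lower, where 0.497%, 0.197% and 4.09% of all genes were higher and 0.79%, 0.504% and 6.79% lower. Over DMSO at 3 and 12 h these counts are near the shares of all genes, and nothing is read from them. By the SDE rule, ALDH1L2 passed as higher at 12 h and MAT2A as lower at 3 and 12 h. Of all 14685 genes, 72 were SDE higher at 12 h, and 113 and 134 were SDE lower at 3 and 12 h.

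ALDH1L2, the mitochondrial formyltetrahydrofolate dehydrogenase that works on the same folate pool as MTHFD1L, gave 86.0, 82.3, 78.6 and 64.1 CPM under T-REX at 12 h. The 12 control libraries of ALDH1L2 lay between 45.8 and 59.5 CPM, all below T-REX. It rose by 0.55 ± 0.07, 0.47 ± 0.07 and 0.59 ± 0.07 on the log2 scale (adjusted p = 0.000159, 0.00141 and 3.23e-05), and at 6 h over DMSO (0.42 ± 0.09, adjusted p = 0.0335).

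MAT2A, which makes S-adenosylmethionine, the methyl donor fed by the one-carbon cycle, was lower at 3 and 12 h over 2 of the 3 controls each. At 3 h it gave 377, 413, 359 and 361 CPM under T-REX and 498, 474, 449 and 478 CPM with DMSO, without overlap. Its log2 fold changes were -0.25 over probe alone and -0.33 over DMSO at 3 h (adjusted p = 0.036 and 0.00196) and -0.22 over light alone and -0.24 over DMSO at 12 h (adjusted p = 0.0181 and 0.00262). Over light alone at 3 h the value was -0.22 and over probe alone at 12 h -0.08 (adjusted p = 0.0739 and 0.579). At 6 h MAT2A had -0.18, -0.003 and -0.05 over light alone, probe alone and DMSO and did not pass. Calls over a single control included those of ALDH18A1 (over probe alone) and GGH at 3 h and of DLD and GOT2 at 12 h, all lower, and of ASS1 at 12 h, which was higher, where the control was DMSO unless stated. GOT2 was also lower in probe alone than in DMSO at 12 h, and these genes are named because their values were seen.

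Of 9 transcription regulators known to act on such genes in other systems, ATF4 and CEBPG were SDE, both higher at 12 h. DDIT3, CEBPB, TRIB3, ATF5 and NFE2L2 were not called in any comparison. MYC was called only between controls, lower in probe alone than in DMSO at 12 h. Over all genes, 0.49% were SDE higher at 12 h. ATF4 RNA stood at 384, 378, 354 and 392 CPM under T-REX and 329, 314, 271 and 322 CPM with DMSO. The groups did not overlap, and the log2 fold changes were 0.23 ± 0.05, 0.22 ± 0.05 and 0.28 ± 0.05 over the 3 controls in the same order (adjusted p = 0.0251, 0.0561 and 0.00129). CEBPG, a C/EBP partner of ATF4, was at 86.9 ± 6.80 CPM under T-REX and 70.8 ± 1.87, 72.4 ± 2.06 and 72.1 ± 2.78 CPM in the controls (log2 fold changes 0.30, 0.26 and 0.27, adjusted p = 0.0033, 0.0197 and 0.00296). At 3 h ATF4 RNA had log2 fold changes of 0.08, 0.12 and 0.09 and did not pass. ATF4 protein is not in these data, and the part of ATF4 in the members' values was not tested. ATF3, named after its value was seen, was called in 1 comparison, over probe alone at 3 h (0.41), and light alone was also above probe alone there (0.39).

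The genes most like ASNS over the 12 group means, each taken relative to the mean of the 4 arms at its time, were NTPCR (r = 0.93), ATP6AP1L (0.93), the unnamed ENSG00000281195 (0.93), SND1-IT1 (0.92) and DLEU2 (0.92), among 10125 genes with a mean log2 CPM above 3. Of the members, ASNSP1 was closest to ASNS on this measure (r = 0.85), then MTHFD1L (0.83) and PHGDH (0.80), and SHMT2 was farthest (0.26). These 12 points share libraries and normalization and carry no test.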

How the data were processed

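RNA-seq libraries of NCBP1-Halo HEK293T cells (48, 4 per arm and time) were read from 3 tables of raw counts per Ensembl gene, 1 for each time point, as the authors deposited them. The authors' library and sequencing steps are given as TruSeq Stranded mRNA reagents in the labels and with depletion of ribosomal RNA in the study's Methods. The study lists cutadapt, TopHat and Cufflinks for its RNA-seq data and the submitters' processing notes list bcl2fastq. The genome build, the program that made the raw counts and its treatment of reads with several matches are not given in the sources used here. The coordinates printed are therefore those of RefSeq promoters on the build named beside them, not of the counted genes. The deposited log2 CPM values, which the authors derived from those counts, were used only in 1 alternative, and the scores the authors deposited after RUV transformation were not used. The 2 RUV factors per library, also scores without a unit, entered an alternative and the within-group description. No column of samples was left unmapped (0). Symbols came from a table of gene names (13443 of 14685 genes had one).

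Tests used edgeR 4.0.16 in R 4.3.3, with TMM factors per time point, a filter on low counts that removed 0 genes, and a quasi-likelihood fit of all 16 libraries of a time point without covariates (of all 48 for comparisons of times). P-values were Benjamini-Hochberg adjusted over all 14685 genes, with 0.05 as the threshold. The SDE rule follows the study. Printed CPM used TMM factors over 48 libraries, and deviations and likeness used log2 CPM with a prior count of 2. DESeq2 1.42.0 and limma 3.58.1 gave alternatives. Python 3.11.15 ran the permutation and sequence steps. On simulated counts of 14685 genes for T-REX and DMSO, 75, 72 and 78 of 100 genes changed by a log2 fold of 0.5 were recovered at 3, 6 and 12 h (6, 8 and 6 false calls), and 66 of 100 for the difference of the T-REX effect between 12 and 3 h (11 false calls). The changed genes had mean counts above 100, and each gene was drawn without variation shared between genes. Smaller changes, which many of the members had, were not simulated, so recovery of those is not known.

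Groups came from the labels. Both the series and the study describe the 4 replicates of a group as biological and independent. No replicate pair was alike within counting noise (chi-square per degree of freedom 3.15 to 46.5 over 72 pairs). All 10 members were named in every comparison, other pathway genes and regulators where SDE, and the 5 genes most like ASNS. The members, lists and motifs were chosen with earlier results of these data known. Analyses of splicing and other tables were not made here. Some single calls among the other pathway genes are not reported here.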

Additional observations from a re-analysis of the deposited data

How the results depend on the processing

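The direction of every call was kept under all alternatives and in all fits that left out 1 library. Of the members' values, 1349 stayed on their side of the threshold under alternatives, 85 newly passed and 10 no longer did, and with 1 library left out these numbers were 5165, 65 and 50 (a change of sign between values that were both not called counts as unchanged). RLE factors, no filter and limma-trend left every count of members within 1.5 times. With the RUV factors as covariates, the counts of members called over light alone, probe alone and DMSO were 6, 5 and 5 at 3 h, 8, 5 and 8 at 6 h and 8, 6 and 9 at 12 h. They were 5, 8 and 8 for SDE members. Between controls RUV gave 3 (light alone and DMSO) and 4 (light alone and probe alone) at 3 h, 1 (light alone and DMSO) at 6 h, and 1, 3 (probe alone and DMSO) and 1 at 12 h. With only the 2 arms compared, the counts were 0, 0 and 1 at 3 h, 3 over probe alone at 6 h, 8 over light alone and 3 over DMSO at 12 h, 1 at 12 h for light alone with probe alone, and 0 and 3 SDE at 3 and 6 h. DESeq2 gave 4 over DMSO at 3 h, 4 over light alone at 6 h, 7 over light alone at 12 h, 1 between probe alone and DMSO at 12 h, and 4 and 3 SDE at 3 and 6 h. The cause was not tested.

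Shared replicate numbers were not taken to pair the libraries, since not every correlation was over 0.1. Deviations of same-numbered libraries of T-REX and a control correlated between -0.64 and 0.57, over 0.1 in 19 of 36, and were highest for the own number in 16. For probe alone they were so in 3, 4 and 3 of 4 libraries at 3, 6 and 12 h, a hint from the data and not from the design. The replicate block gave 4 members over DMSO at 3 h, 3 over light alone at 6 h, and 4 and 2 SDE at 3 and 6 h. It ended MTHFD2 over probe alone (adjusted p = 0.0562) and PSAT1 over DMSO (adjusted p = 0.0667) at 12 h and no other call. With the block these values newly passed: ASNSP1 over probe alone and DMSO at 3 h (adjusted p = 0.0353 and 0.0288) and over DMSO at 6 h (0.0383), CTH over DMSO at 3 h (0.0303) and over light alone at 6 and 12 h (0.0287 and 0.00393), and PSAT1 over light alone at 6 h (0.0372).

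Leaving out 1 library, the counts over light alone, probe alone and DMSO ran from 0 to 3, 1 to 3 and 2 to 3 at 3 h, 0 to 3, 0 to 2 and 0 to 3 at 6 h, and 4 to 7, 1 to 4 and 4 to 7 at 12 h, and SDE members from 1 to 3, 0 to 2 and 2 to 6. At 12 h probe alone and DMSO ran from 0 to 2, light alone and probe alone from 0 to 1, and DMSO between 12 and 3 h from 4 to 7 and between 6 and 3 h from 2 to 3. Without DMSO replicate 3 at 12 h, 6, 4 and 7 members were called and 6 were SDE. The differences of the log2 ratio of ASNSP1 to ASNS ran, in the order light alone, probe alone and DMSO, from -0.32 to -0.16, -0.33 to 0.05 and -0.41 to -0.22 at 3 h, from 0.40 to 0.55, 0.09 to 0.28 and 0.16 to 0.42 at 6 h, and from 0.11 to 0.25, 0.33 to 0.50 and 0.34 to 0.66 at 12 h. No comparison of times was called for a member under any alternative.

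Over all genes, SDE calls (higher and lower) numbered 139, 20 and 206 at 3, 6 and 12 h, and 2114, 344 and 1315 with the RUV factors, 560, 71 and 411 with DESeq2 and 5, 42 and 382 with only the 2 arms. Depth limits ASNS, ASNSP1 and CBS most (lowest counts 151, 154 and 110).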
